A study of Astyanax mexicanus with 78 samples.

Results

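The genes described here were higher in the brains of aged than of young surface fish, while their age difference in surface gut, heart, liver and muscle and in the brains of cavefish stayed under fixed limits. The set holds 100 of the 19076 genes in the count tables. A gene's level was its CPM, the count scaled to a library total of 1000000, and its age difference was the mean of log2(CPM + 1) in aged libraries minus that in young libraries. To be chosen, a gene needed a mean of at least 10 CPM over the 8 surface brain libraries, every aged surface brain library above every young one, an age difference under 0.5 in each of the 4 other surface tissues, and an age difference under 0.2 in cave brain. The 100 genes with the highest age difference in surface brain among those that met all of these conditions were taken, so the values in surface brain and the limits elsewhere chose the members and are given below as a description.

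The study asked how gene expression changes with age in the Mexican tetra, Astyanax mexicanus, which has a sighted, river-dwelling surface form and blind cave forms that sleep less. RNA was sequenced from whole brain, gut, heart, liver and a portion of muscle of surface fish and of cavefish from Pachón, from aged fish of 7 to 8 years and from young fish of about 1 year, in 78 libraries. The groups were aged and young cavefish and aged and young surface fish, for each of the 5 tissues, with 4 libraries in 18 groups and 3 libraries in aged cave brain and in aged surface gut. The study's methods give at least 4 fish per age and population, but the labels do not tie a library to a fish, so p-values measure the spread between these libraries. No fish received a treatment or carried an introduced allele, and the populations differ in their whole genome, so a difference between them belongs to no single gene.

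Only 8 of the 100 members have a gene name in the sources used here, and the rest are given by Ensembl identifier. The named members are sqstm1, fancc, rspo2, etv4, gpr186, cntnap5l, rhoj and si:dkey-112a7.4. They come from unrelated systems. The protein encoded by sqstm1, also called p62, is a receptor that carries ubiquitin-tagged cargo to the autophagosome. The Fanconi anaemia core complex, to which the product of fancc belongs, acts on DNA crosslinks, while rspo2 and etv4 encode parts of growth signalling, a secreted amplifier of Wnt signals and a transcription factor induced by fibroblast growth factor. Of the others, gpr186, cntnap5l and rhoj encode proteins at or near the cell membrane, a receptor, an adhesion protein and a small GTPase.

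Brain libraries held between 6266669 and 15015580 counts. The neuronal RNA-binding protein genes elavl4 and rbfox3a were present in all 15 brain libraries, elavl4 at 138.4 to 240.6 CPM and rbfox3a at 73.6 to 115.8 CPM, and reached at most 1.08 and 3.94 CPM in any library of another tissue. Their summed level ran between 214.2 and 313.8 CPM in aged surface brains and between 289.8 and 346.1 CPM in young surface brains. Aged surface replicates 7 and 8 had the lowest sums, 221.2 and 214.2 CPM. In tissue RNA, fewer cells of a type and less RNA per cell cannot be told apart. The muscle actin gene acta1b stood at 99.1 CPM in young surface replicate 3, against 1.68 to 5.598 CPM in the other surface brains, and 6 markers of retina and pineal summed to 106.9 CPM in the same library, against 2.185 to 14.47 CPM in the others. The endothelial genes slc2a1a and fli1a summed to 779.6 CPM in aged surface replicate 7, against 374.5 to 398.6 CPM in the other aged surface brains. Of 258 markers of 14 cell types fixed for this check, 18 have a name in these data, so most cell types could not be followed. Over all 15 brain libraries, pdgfra, fn1a and dcn, listed for this check under meninges and fibroblasts, summed to 103.2 to 189.6 CPM. Whether they mark only those cells in brain was not tested. The microglia marker slc7a7 stood at 3.191 to 8.081 CPM, and neither apoa1a of liver nor pitx1 of pituitary exceeded 0.55 CPM in any brain library. When the rule was applied without young surface replicate 3, 76 of the 100 members were chosen again, and 73 were without aged replicate 7 and 63 without aged replicate 8. In these cases 100, 100 and 97 members still met every condition of the rule. Leaving out any other surface brain library gave 68 to 82 members chosen again. The part of the foreign markers in the members' values was not tested. Outside the brain, the cave heart library labelled young replicate 1 stood apart: over the log2(CPM + 1) of 19076 genes it correlated at 0.705 with the median of the other cave hearts and at 0.967 with the median of the cave livers, while the other 7 cave hearts correlated at 0.937 to 0.97 with the hearts and at 0.648 to 0.769 with the livers. These correlations are across genes, which are no independent replicates. For cave heart, the counts of members called or not overlapping with age, and called between populations, are given with and without this library. Other values from cave heart, also those of brain against heart, include it unless stated. The 4 aged cave heart libraries are described as young in one label and as aged in another, and were taken as aged.

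The rule started from 9878 genes at or over 10 CPM in surface brain. Of these, 596 (6.03%) had every aged surface brain library above every young one and 689 (6.98%) had every aged library below. The limit in cave brain left 506 of the 596 genes, the limits in the other surface tissues alone left 236, and both together left 203. The limits in the other tissues thus removed more genes than the limit in cave brain did. Among the 100 members the age difference in surface brain ran between 0.294 and 1.55 with a median of 0.403, while the median over the 9878 genes was -0.023. It reached 1 in 2 members and 0.5 in 26. The choice at the lower end was close: the last 3 members inside had differences of 0.296, 0.295 and 0.294, and the first 3 genes outside had 0.293, 0.292 and 0.291. The average surface brain level of a member ran between 10.2 and 1000 CPM, with a median of 42.3 CPM.

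Together the members took a small part of the brain's counts. Their share was 0.980%, 1.01%, 1.01% and 1.01% in the 4 aged surface brains, against 0.777%, 0.753%, 0.710% and 0.712% in the 4 young surface brains. In cavefish it was 0.885%, 0.876% and 0.826% in the 3 aged brains, against 0.806%, 0.864%, 0.901% and 0.860% in the 4 young brains. The aged and young surface brains did not overlap, which the choice of members fixes. The aged and young cave brains overlapped, and all 7 cave values lay between the young and the aged surface values. Since the choice of members parted the surface groups, nothing is read from the cave values lying between them.

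**Figure D1:**
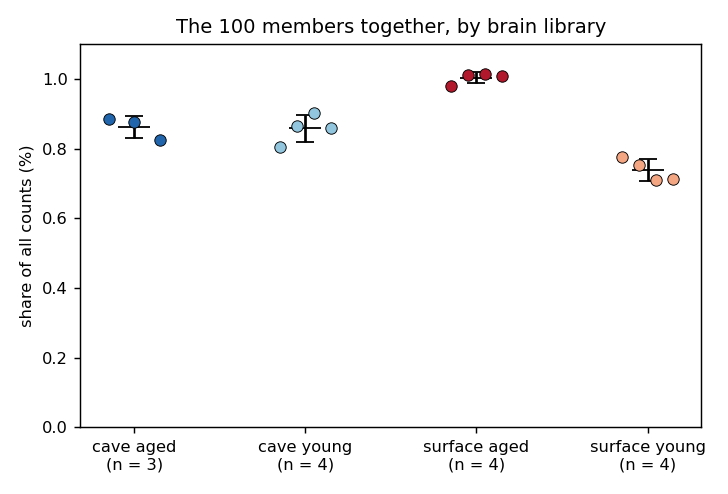
Share of all counts (%, y axis) taken by the 100 members in each brain library (points), by population and age (x axis), with the mean and SD of each group. The cave brains of both ages, at 0.806% to 0.901%, lie between the aged surface brains, at 0.980% to 1.01%, and the young surface brains, at 0.710% to 0.777%. The choice of members parted the surface groups.

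The autophagy receptor gene sqstm1 differed with age in the same direction in both populations. It stood at 156.1, 181.5, 163.6 and 182 CPM in aged surface brains, against 138.4, 132.3, 130.4 and 131.4 CPM in young surface brains. In cave brains it stood at 151, 156.7 and 163.2 CPM in aged fish, against 142.2, 129.4, 133.8 and 140.9 CPM in young fish. Aged and young libraries of sqstm1 thus did not overlap in either population, and its difference in cave brain lay just under the limit, at 0.2 when rounded. It is 1 of 4 members whose aged cave brains all lay above the young ones, where 6.46% of the 9878 genes did so. DESeq2 did not call sqstm1 in cave brain (log2 fold change 0.22 ± 0.08 SE, DESeq2 adjusted p = 0.127). The 6 named autophagy and lysosome genes that could be fitted had a median log2 fold change of -0.03 in surface brain, and sqstm1 was the only 1 of them that DESeq2 called higher there. None was called lower, and none was called in either direction in cave brain, where their median was 0.10. As a member, sqstm1 was chosen on the surface brain contrast, so nothing is read from its call there.

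Among the genes of DNA repair, fancc stood at 17.2, 19.03, 20.2 and 14.75 CPM in aged surface brains, against 12.9, 10.8, 13.3 and 11.8 CPM in young surface brains. Cave brains held 10.9, 10.8 and 14.85 CPM in aged fish, against 14.87, 13.5, 12.55 and 15.6 CPM in young fish, so that the ages overlapped. A list of DNA damage response and repair genes that did not hold fancc had 3 genes with a name, all of which could be fitted. DESeq2 called none of them in surface brain, where gadd45ba, a gene induced by DNA damage, had a log2 fold change of 1.09 (DESeq2 adjusted p = 0.191). In cave brain it called gadd45ba higher in aged fish, by a log2 fold change of 0.71 (DESeq2 adjusted p = 4.73e-12), and the difference between the populations was not tested.

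The members that act in growth signalling had low levels. The Wnt amplifier gene rspo2 stood at 26.2, 30.5, 30.8 and 22.8 CPM in aged surface brains, against 22.5, 16.1, 20.6 and 17.8 CPM in young surface brains. In cave brains it stood at 22.7, 29.98 and 23.98 CPM in aged fish, against 23.7, 21.9, 22.6 and 24.3 CPM in young fish. The gap between the lowest aged and the highest young surface brain was 0.018 on the log2(CPM + 1) scale, and among the named members only si:dkey-112a7.4 had a narrower gap, 0.008.

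The transcription factor gene etv4 stood at 20.01, 21, 25.85 and 20.2 CPM in aged surface brains, against 16.25, 14.5, 16.9 and 19.1 CPM in young surface brains. Cave brains held 18.05, 23.02 and 18.7 CPM in aged fish, against 25.7, 19.3, 21.7 and 21.1 CPM in young fish. A single aged surface library, replicate 7, stood above the other 3, and 3 of the 4 young cave brains lay within the range of the aged surface brains. The small GTPase gene rhoj, which is known in mammals from blood vessel endothelium, stood at 15.1, 14.25, 12.65 and 12.6 CPM in aged surface brains, against 10.3, 8.74, 10.7 and 12.3 CPM in young surface brains. In cave brains rhoj stood at 10.0, 11.2 and 9.24 CPM in aged fish, against 12.4, 8.36, 13.45 and 12.6 CPM in young fish. The endothelial marker sum was highest in aged surface replicate 7, where rhoj was among the lower aged values, and the part of vessel content in its difference was not tested.

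At the cell surface, gpr186, an orphan G protein-coupled receptor gene by its name, had the largest age difference of the named members. It stood at 81.7, 84.4, 94.6 and 66.9 CPM in aged surface brains, against 64.7, 48.15, 48.3 and 48.25 CPM in young surface brains. In cave brains it stood at 55.3, 40.5 and 40.8 CPM in aged fish, against 43.2, 50.4, 52.2 and 38.3 CPM in young fish. Cave brains of both ages thus lay near the level of the 3 lower young surface brains.

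The neuronal adhesion gene cntnap5l, of the contactin-associated protein family, stood at 69.7, 69.9, 58.85 and 65.9 CPM in aged surface brains, against 52.95, 52.35, 44.1 and 54.9 CPM in young surface brains. Cave brains held 74.6, 70.4 and 44.2 CPM in aged fish, against 58.2, 53.3, 58.9 and 52.8 CPM in young fish. The 3 aged cave brains were split, with 2 above and 1 below all 4 young ones. Among 54 adhesion and axon guidance genes that could be fitted in surface brain, DESeq2 called 2 higher in aged fish, cntnap5l and the ephrin ligand gene efna2b, and 1 lower, the semaphorin gene sema6e, with a median log2 fold change of 0.005. In cave brain 53 of them could be fitted, 1 was called higher, the ephrin ligand gene efna1b, and the median was 0.05. The medians over all genes fitted were 0.006 in surface brain and -0.005 in cave brain. Being a member, cntnap5l was chosen on the surface brain contrast, so nothing is read from its call there. The last named member, si:dkey-112a7.4, carries a clone name with no role. It stood at 51.8, 50.2, 69.2 and 68.5 CPM in aged surface brains, against 49.95, 46.8, 45.4 and 47.1 CPM in young surface brains, so that 2 aged libraries were close to the young ones and 2 far above. In cave brains it stood at 54.6, 45.8 and 47.02 CPM in aged fish, against 43.2, 42.02, 46.6 and 43.7 CPM in young fish, with 2 of the 3 aged libraries above all 4 young ones.

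**Figure D2:**
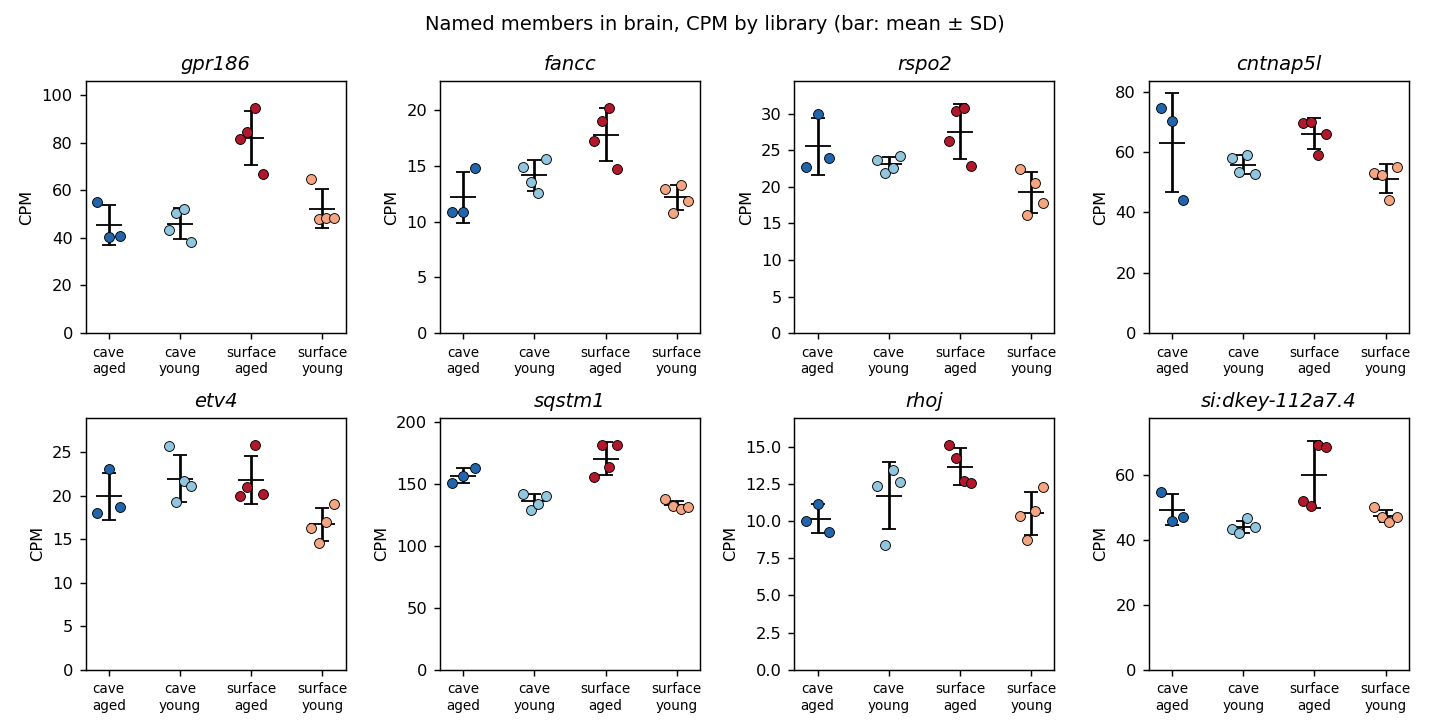
CPM (y axis, from 0) of the 8 named members in every brain library (points) by population and age (x axis), with the mean and SD of each group. Aged surface brains lie above young surface brains in every panel, as the choice of members fixes, and aged and young cave brains overlap in every panel but that of sqstm1.

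The members with the largest age difference in surface brain have no name. ENSAMXG00000033000 stood at 14.9, 27.75, 20.35 and 7.92 CPM in aged surface brains, against 6.73, 4.96, 4.27 and 3.85 CPM in young surface brains, and at 2.62 to 4.47 CPM in all 7 cave brains. The aged surface brains spread more than 3-fold, and the cave brains lay within or below the range of the young surface brains. ENSAMXG00000025595 stood at 19.7, 23.7, 16.2 and 14.75 CPM in aged surface brains, against 10.99, 3.28, 3.05 and 11.1 CPM in young surface brains. Its level in the 7 cave brains ran between 19.3 and 25.1 CPM, within or above the range of the aged surface brains. These 2 members are the only ones with a difference of at least 1 on the log2 scale, and the cave level lies near that of young surface brains in the first and near that of aged surface brains in the second.

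The abundant members also have no name. ENSAMXG00000032650, the member with the highest level, stood at 1144, 1163, 1046 and 1148 CPM in aged surface brains, against 899.7, 947.9, 798.1 and 855.6 CPM in young surface brains, while the cave brains ran between 660.2 and 955.8 CPM. ENSAMXG00000043707 stood at 405.4, 453, 391.9 and 287.4 CPM in aged surface brains, against 247.4, 197.5, 256.4 and 171.2 CPM in young surface brains, while the cave brains ran between 294.9 and 415.3 CPM. A further abundant pair, ENSAMXG00000042510 and ENSAMXG00000020595, had nearly equal counts in each library. The ratio of the first to the second ran between 0.998 and 1.09 over the 15 brain libraries and between 0.836 and 1.09 over all 78. Whether these identifiers share reads is not known from the sources used here, so the pair may count 1 measurement as 2 members.

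As a description, DESeq2 called 69 of the 100 members higher with age in surface brain at an adjusted p under 0.05, where it called 3.12% of all genes tested higher. edgeR called 22 members higher in the same libraries, where it called 1.01% of all genes higher. The median log2 fold change in DESeq2 was 0.45 for the members and 0.006 for all genes tested. Since the members were chosen on this contrast, nothing is read from these counts.

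In cave brain, where the rule set an upper limit only, the members' age difference ran between -0.541 and 0.2 with a median of -0.016, and the median over the 9878 genes was -0.026. It lay within 0.1 of 0 in 41 members, at 0.1 or above in 27 and at -0.1 or below in 32. Of those at 0.1 or above, 8 lay within 0.05 of the limit. Every aged cave brain was above every young one in 4 members, where 6.46% of the 9878 genes did so, and below in 5 members, where 9.94% did so. DESeq2 called 1 member, lower in aged than in young cave brain, where it called 0.988% of all genes tested lower and 2.27% in either direction. edgeR called no member, where it called 0.296% of all genes, with 6 members at an unadjusted p under 0.05. No share over all genes is given for those 6, so nothing is read from them. The member that DESeq2 called, ENSAMXG00000039999, stood at 20.02, 17.8 and 20.8 CPM in aged cave brains, against 25.7, 26.95, 33.2 and 30 CPM in young cave brains. It was not called in any of the 7 fits that left out 1 library. In surface brain it stood at 30.9, 33.5, 32.0 and 38.6 CPM in aged fish, against 29.5, 28.5, 21.8 and 25.6 CPM in young fish. The groups did not overlap in either population and lay in opposite orders.

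**Figure D3:**
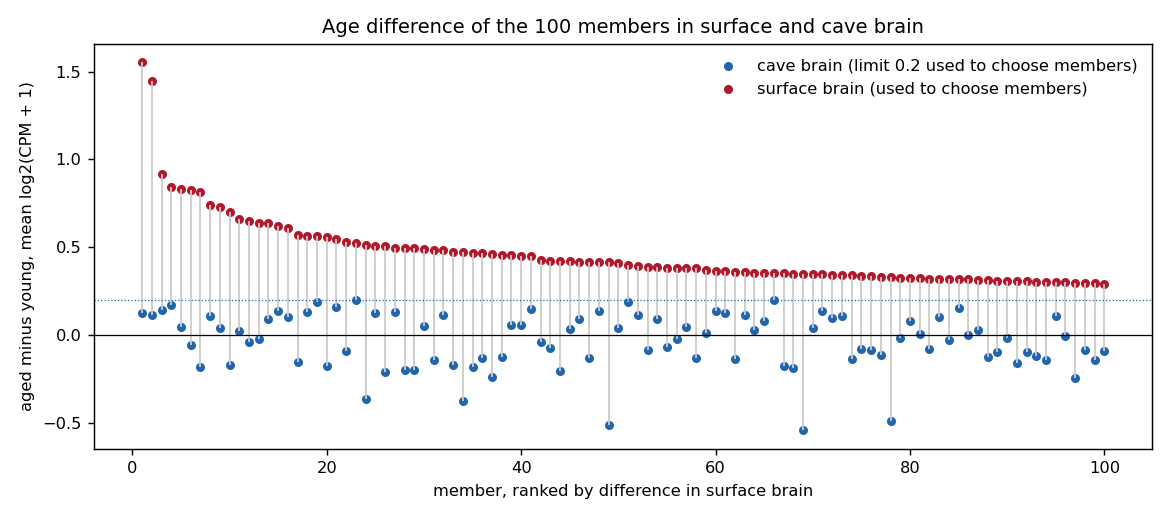
Age difference of each member (aged minus young, mean log2(CPM + 1), y axis) in cave brain (blue) and surface brain (red), ranked by the difference in surface brain (x axis). The dotted line is the limit of 0.2 that the rule set in cave brain, where the members spread between -0.541 and 0.2 around a median of -0.016.

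The level of the members in cave brain, which the rule did not limit, fell mostly within the surface range. The average over the 7 cave brains lay between those of young and aged surface brains in 56 members, at or below that of young surface brains in 26 and at or above that of aged surface brains in 18. The median member was 0.172 higher in cave than in young surface brains and 0.268 lower in cave than in aged surface brains on the log2(CPM + 1) scale, the second shown as -0.268 in the direction cave minus surface. All 7 cave brains were below all 4 aged surface brains in 33 members, where 7.44% of the 9878 genes were, and above all 4 in 2 members, where 7.92% were. All 7 cave brains were above all 4 young surface brains in 28 members, where 8.00% of the genes were, and below all 4 in 5 members, where 7.98% were. These positions and shares rest on surface groups that the rule had already parted.

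With age class held in the fit, DESeq2 called 28 of the 100 members different between cave and surface brain, 10 higher and 18 lower in cave brain. Of the genes over the same floor of 10 CPM it called 28.8%, 12.4% higher and 16.5% lower, so the members' share is near that of other genes. This fit takes a single population difference for both ages and uses the surface brain values that chose the members. Its folds, here and for the named members below, are therefore given as a description. The largest difference was that of ENSAMXG00000017992, which stood at 2.26 to 6.003 CPM in the 7 cave brains, against 5.04 to 19.4 CPM in the 8 surface brains, a log2 fold change of -1.42 ± 0.28 (SE) with a DESeq2 adjusted p of 5.84e-06. ENSAMXG00000033000, whose values are given above, was lower in cave brain by a log2 fold change of -1.39 ± 0.31 (SE, DESeq2 adjusted p = 0.000102). ENSAMXG00000002370 stood at 6.22 to 12.2 CPM in cave brains, against 12.9 to 31.4 CPM in surface brains, a log2 fold change of -1.18 ± 0.17 (SE, DESeq2 adjusted p = 7.07e-10). Cave and surface brains did not overlap in this last gene.

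Of the named members, 1 was called between the populations in brain. The receptor gene gpr186 averaged 45.5 ± 8.44 CPM in aged cave brains (SD, n = 3) and 46.0 ± 6.44 CPM in young cave brains (SD, n = 4), against 81.9 ± 11.4 CPM in aged surface brains and 52.35 ± 8.21 CPM in young surface brains (SD, n = 4 each). Its log2 fold change of cave over surface was -0.53 ± 0.14 (SE, DESeq2 adjusted p = 0.00157), and all 15 fits that left out 1 library called it. For sqstm1 the log2 fold change was -0.07 ± 0.06 (SE) and for cntnap5l it was 0.00 ± 0.10 (SE), neither called. In the other direction, ENSAMXG00000025595 was higher in cave brain by a log2 fold change of 0.92 ± 0.27 (SE, DESeq2 adjusted p = 0.00569). ENSAMXG00000040367 stood at 157.3 to 194.1 CPM in cave brains, against 104.5 to 141.5 CPM in surface brains, without overlap, and its log2 fold change was 0.52 ± 0.08 (SE, DESeq2 adjusted p = 2.84e-10).

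Outside the brain, the rule limited the members' rise in surface fish, so only cavefish give an age comparison that the rule did not use. In cave gut, DESeq2 called 4 of the 78 members it could test, all lower in aged fish, where it called 5.30% of all genes tested in either direction and 2.31% lower. ENSAMXG00000035847 stood at 5.26, 3.66, 5.03 and 6.23 CPM in aged cave guts, against 14.9, 11.9, 14.5 and 10.4 CPM in young cave guts, a log2 fold change of -1.31 ± 0.26 (SE, DESeq2 adjusted p = 0.000219). ENSAMXG00000018528 stood at 2.38, 1.58, 2.102 and 3.58 CPM in aged cave guts, against 6.96, 7.55, 4.83 and 10.3 CPM in young cave guts, a log2 fold change of -1.60 ± 0.37 (SE, DESeq2 adjusted p = 0.00192). The aged and young guts did not overlap in either gene. ENSAMXG00000038329 had a log2 fold change of -1.27 ± 0.32 (SE, DESeq2 adjusted p = 0.0048). ENSAMXG00000033062 had -0.83 ± 0.25 (SE, DESeq2 adjusted p = 0.0256), a call kept in 2 of the 8 fits that left out 1 library, while the other 3 genes were called in all 8. All 4 also averaged lower in aged than in young surface guts, where the rule limited only a rise. In the order given, their age differences there were -0.701, -1.37, -1.069 and -0.718. edgeR called no gene at all in cave gut, with 10 members at an unadjusted p under 0.05. No share over all genes is given for those 10, so nothing is read from them. The edgeR adjusted p for the 4 genes that DESeq2 called ran between 0.123 and 0.133. Among the named members the GTPase gene rhoj stood at 1.08, 1.25, 1.01 and 1.27 CPM in aged cave guts, against 2.13, 3.02, 1.46 and 2.82 CPM in young cave guts, without overlap, but was not called (log2 fold change -1.01 ± 0.44 SE, DESeq2 adjusted p = 0.163).

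In cave heart, DESeq2 called 1 of 74 members, higher in aged fish, where it called 0.155% of all genes tested higher. ENSAMXG00000007771 stood at 3.27, 5.37, 1.93 and 0.823 CPM in aged cave hearts, against 0, 0.111, 0.121 and 0.127 CPM in young cave hearts, and its log2 fold change was 4.62 ± 1.03 (SE, DESeq2 adjusted p = 0.0104). It was called in 5 of the 8 fits that left out 1 library, with a DESeq2 adjusted p of up to 0.196. The 4 young hearts held 3 counts of this gene in all, against 104 in the 4 aged hearts, a ratio of 35.0 per count sequenced with an exact binomial 95% interval of 11.65 to 172.5 that covers counting error only, and edgeR's filter left the gene out. Every aged cave heart was above every young one in 8 members, where 1.95% of the 9878 genes were, and no member was below, where 0.0709% were. With young replicate 1 left out, the same 8 members lay above, where 2.12% of the genes were, and 2 lay below, where 3.64% were. DESeq2 then called 2 members, ENSAMXG00000007771 with an adjusted p of 0.0112 and ENSAMXG00000004386 with one of 0.0203 (log2 fold change 1.86 ± 0.47 SE). The share of all genes called in that fit is not given, so nothing is read from the count. ENSAMXG00000004386 stood at 88.8, 306.3, 275 and 201.8 CPM in aged cave hearts, against 1.45, 76.1, 53.6 and 60.3 CPM in young cave hearts, the 1.45 CPM being replicate 1. It was not called with all libraries (DESeq2 adjusted p = 0.179). Of the 8 fits that left out 1 library, only that without replicate 1 called it.

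The repair gene fancc was among the 8 members. It stood at 17.5, 25.1, 26.6 and 48.5 CPM in aged cave hearts, against 0.170, 15.2, 12.4 and 13.96 CPM in young cave hearts, the first being replicate 1. It was not called: its log2 fold change was 1.56 ± 0.72 (SE, DESeq2 adjusted p = 0.584) and 1.21 ± 0.48 (SE, DESeq2 adjusted p = 0.335) without replicate 1. Also among the 8 was ENSAMXG00000018528, which stood at 562.4, 545, 562.9 and 767.2 CPM in aged cave hearts, against 0.0852, 285.4, 294.2 and 341.1 CPM in young cave hearts. In surface hearts it stood at 319.7 to 407.6 CPM in aged fish, against 510 to 648.4 CPM in young fish, the opposite order. That difference between the populations was not tested.

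Cave liver and muscle gave fewer values that held. In cave liver DESeq2 called 1 of 67 members, where it called 1.91% of all genes tested. ENSAMXG00000040367 stood at 58.7, 77.8, 37.1 and 59.45 CPM in aged cave livers, against 17.8, 21.3, 45.9 and 65.9 CPM in young cave livers, which overlap. Its log2 fold change of 1.27 ± 0.33 (SE, DESeq2 adjusted p = 0.0146) was called in 4 of the 8 fits that left out 1 library. It was not called when libraries were scaled by their total counts (log2 fold change 0.63 ± 0.56 SE, DESeq2 adjusted p = 0.611), and no member was called when cave liver replicate 4, which a table of the study heads as old, was taken as aged. In cave muscle DESeq2 called none of 79 members, where it called 0.685% of all genes tested, with 6 members at an unadjusted p under 0.05. edgeR called none, where it called 0.0333% of all genes, with 3 members at an unadjusted p under 0.05. No share over all genes is given for these 2 unadjusted counts, so nothing is read from them. Since the rule set upper limits only, members could be lower in the aged surface tissues, and every aged library was below every young one in 10 members in surface gut (9.32% of the 9878 genes), 3 in heart (2.1%), 2 in liver (1.65%) and 2 in muscle (3.64%). The median age difference of the members lay near that of the 9878 genes in each cave tissue: -0.02 against -0.033 in gut, 0.264 against 0.425 in heart, -0.333 against -0.244 in liver and -0.374 against -0.465 in muscle. These medians are on the CPM scale. Scaling by DESeq2's factors in place of total counts put the median of all genes near 0 in heart and liver. The median with total counts minus that with DESeq2's factors was 0.278 in heart, -0.581 in liver and -0.539 in muscle.

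**Figure D4:**
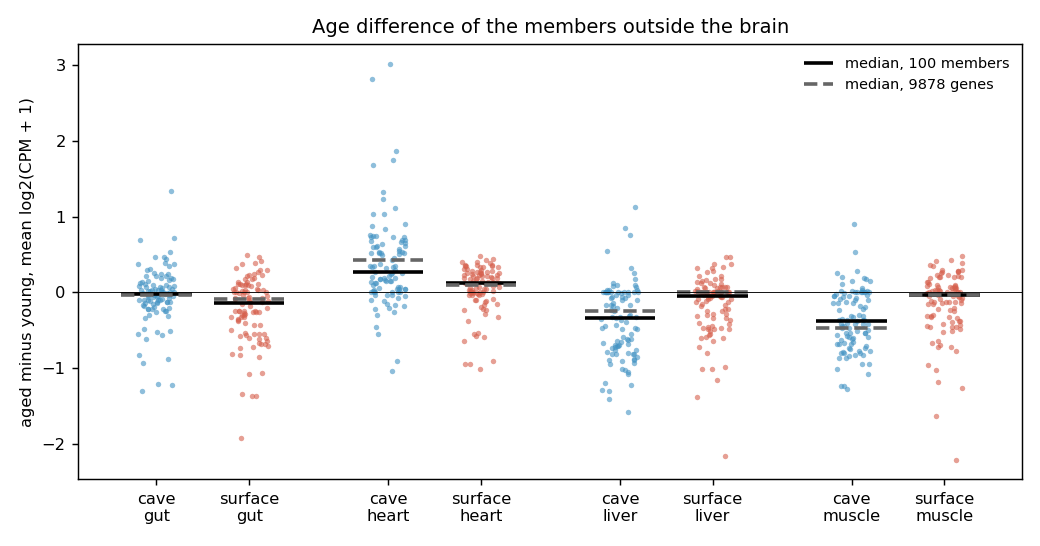
Age difference of each member (point; aged minus young, mean log2(CPM + 1), y axis) in gut, heart, liver and muscle of cave and surface fish (x axis). Solid lines are medians of the 100 members and dashed lines medians of the 9878 genes over the floor, -0.374 and -0.465 in cave muscle; the surface values lie under 0.5 because the rule set that limit.

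Between the populations, the other tissues gave few calls among the members. DESeq2 called 10 of 85 members in gut (11.8%, against 11.3% of the genes over the floor), 4 of 84 in heart (4.76%, against 7.94%), 5 of 78 in liver (6.41%, against 6.18%) and 8 of 88 in muscle (9.09%, against 5.88%). Without cave young heart replicate 1, the count in heart was 7. The share of the genes over the floor in that fit is not given, so nothing about the members is read from the change. A call was made in more than 1 tissue, brain included, in 11 members. No share over all genes is given for this count, so nothing is read from it. ENSAMXG00000010669 was higher in cave fish in each of the 4 tissues outside the brain, with log2 fold changes of 0.81 ± 0.13, 0.80 ± 0.17, 0.83 ± 0.26 and 0.69 ± 0.19 (SE) in gut, heart, liver and muscle. With total-count scaling its calls in gut and muscle held, with DESeq2 adjusted p of 0.00752 and 0.000514, and those in heart and liver did not, with 0.434 and 0.561. ENSAMXG00000030551 was lower in cave heart, liver and muscle, with log2 fold changes of -3.38 ± 0.81, -3.07 ± 1.01 and -2.56 ± 0.65 (SE), at levels of at most 0.381, 0.190 and 1.56 CPM in any cave library of these tissues. With total-count scaling its calls in heart and muscle held, and that in liver did not (log2 fold change -3.15 ± 1.096 SE, DESeq2 adjusted p = 0.0669).

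A member could also change sides between tissues. ENSAMXG00000033000, lower in cave than in surface brain, was higher in cave liver, where it stood at 2.30 to 4.55 CPM in aged cave livers and 2.60 to 12.5 CPM in young cave livers, against 0.0910 to 1.88 CPM in aged surface livers and 0.0601 to 2.98 CPM in young surface livers. Its log2 fold change in liver was 2.59 ± 0.56 (SE, DESeq2 adjusted p = 0.00021). Of the named members, rspo2 was lower in cave gut, at 0 to 0.491 CPM in cave guts, against 0.217 to 1.21 CPM in surface guts, a log2 fold change of -2.26 ± 0.70 (SE, DESeq2 adjusted p = 0.0161). Only a few counts per library stand behind these levels, and the adjusted p reached 0.05002 when 1 library was left out.

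The tissues in which the members are expressed were compared in cavefish, whose libraries gave the rule only its limit on the brain's age difference. Of the 100 members, 75 had their highest average level in cave brain, against 72.4% of the 9878 genes, and 61 stood at 1 CPM or more in all 5 tissues, against 70.5% of the genes. Under 1 CPM in all 4 other tissues were 21 members, against 9.43% of the genes. The rule bears on that share, since a gene near 0 in the other tissues can hardly exceed a limit there: of genes under 1 CPM in the 4 other surface tissues 91.6% stayed under the limits, against 56.0% of the rest. DESeq2 called 81 of 100 members different between cave brain and gut (84.2% of the genes over the floor), 79 of 95 between brain and heart (75.3%), 82 of 99 between brain and liver (80.4%) and 85 of 99 between brain and muscle (79.4%). Higher in brain were 61 in the comparison with gut (56.5% of the genes over the floor), 56 with heart (49.8%), 63 with liver (55.0%) and 51 with muscle (51.3%), and lower were 20 (27.7%), 23 (25.5%), 19 (25.5%) and 34 (28.1%). More members were thus higher in brain than lower, as were the genes over the floor. Both sets had to reach 10 CPM in surface brain, with no floor in the other tissues, so nothing is read from this direction. The splits between higher and lower depend on the scale. Total-count factors raise the median of all genes by 1.55, 0.89, 2.41 and 1.33 on the log2 scale relative to DESeq2's factors. With them, the splits were 91 against 4 of 100 members tested, 68 against 7 of 99, 90 against 3 of 98 and 72 against 4 of 96. The genes over the floor were also mostly higher in brain. They split 8409 against 754 of 9851 tested in gut and 6265 against 808 of 9656 in heart. In liver the split was 8665 against 400 of 9662, and in muscle 7305 against 759 of 9526.

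Among the named members, gpr186, rspo2 and cntnap5l were all but limited to the brain. In every cave library of the 4 other tissues gpr186 was at most 0.411 CPM, rspo2 at most 0.597 CPM and cntnap5l at most 0.965 CPM. All 3 were at 0 in all 8 cave livers, and gpr186 also in all 8 cave muscles, so no fold is given against those. In the other comparisons they were higher in cave brain with either scaling, by log2 fold changes of 5.01 to 9.20 with DESeq2's factors and 6.43 to 10.76 with total counts.

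The autophagy receptor gene sqstm1 was expressed in all 5 tissues. It averaged 157 ± 6.09 CPM in aged cave brains (SD, n = 3), against 217.7 ± 75.3 CPM in gut, 314.9 ± 54.25 CPM in heart, 92.7 ± 31.2 CPM in liver and 181.8 ± 65.2 CPM in muscle of aged cavefish (SD, n = 4 each). With both scalings it was lower in cave brain than in gut, by -2.07 ± 0.10 (SE) and, with total counts, -0.55 ± 0.16 (SE) on the log2 scale, and lower than in heart, by -1.97 ± 0.17 and -1.15 ± 0.35 (SE). Against liver the direction turned with the scale, -2.27 ± 0.20 against 0.23 ± 0.32 (SE), and against muscle total counts gave no call, -1.78 ± 0.22 against -0.27 ± 0.17 (SE, DESeq2 adjusted p = 0.145). The other named members were broad but uneven. For rhoj, heart had the highest level, 28.35 ± 2.23 CPM in aged cave hearts (SD, n = 4), and it was higher in cave brain than in gut by 1.09 ± 0.23 and lower than in heart by -1.94 ± 0.35 on the log2 scale (SE), in the same direction with total counts. In aged cave livers fancc averaged 0.415 CPM and etv4 0.441 CPM, and both were higher in brain than in liver with either scaling, by log2 fold changes of 1.96 ± 0.25 and 2.40 ± 0.23 (SE) with DESeq2's factors.

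**Figure D5:**
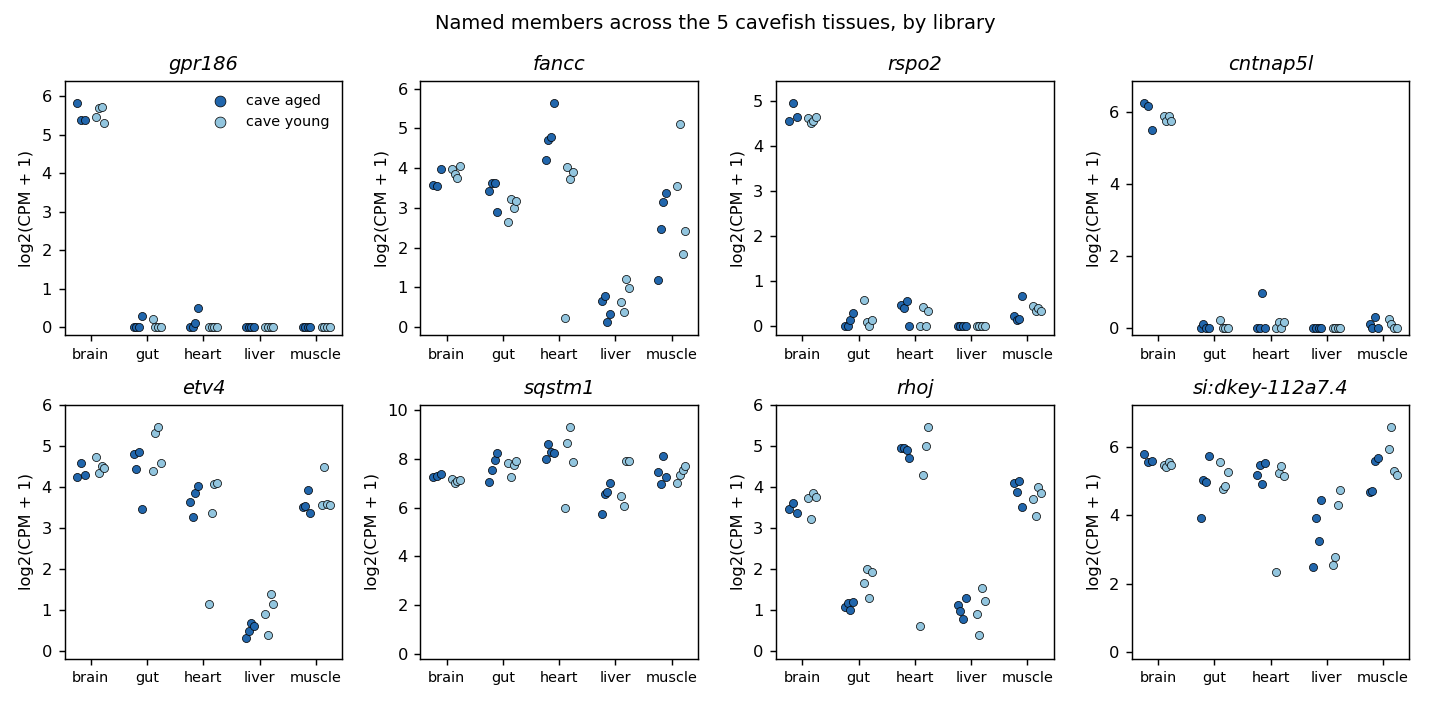
Level of the 8 named members (log2(CPM + 1), y axis) in every cavefish library (points; dark, aged; light, young) of the 5 tissues (x axis). The points of gpr186, rspo2 and cntnap5l lie near 0 outside the brain, at most 0.411, 0.597 and 0.965 CPM, while sqstm1 is high in every tissue.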

How the data were processed

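Raw counts per Ensembl gene, 1 column per library, were deposited by the authors, who per the labels and the study's methods extracted RNA with TRIzol and aligned reads with STAR to the genome Astyanax_mexicanus-2.0 with an Ensembl annotation. The handling of strand and of reads that map to several genes is not given in the sources used here, so near-identical or overlapping genes may share counts. Counts were used as deposited, with 6266669 to 20118504 per library, and no pair of replicates agreed within sampling noise. CPM is 1000000 times the count over the library's total, with a pseudocount of 1 on the log2 scale. The members and gene lists were chosen with earlier results of these data known.

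Age, population (age class as covariate) and tissue contrasts were fitted over all 19076 genes with the Wald test of DESeq2 1.42.0 in R 4.3.3, with Benjamini-Hochberg adjustment and a threshold of 0.05, as in the study's methods. Alternatives were edgeR 4.0.16 (quasi-likelihood), TMM factors, a filter of at least 10 counts in 3 libraries, a replicate block, leaving out single libraries, cave liver replicate 4 as aged, and, chosen after seeing the data, total counts as size factors. Scripts were tested on simulated counts. 1 marker gene of retina and pineal was left out and is not reported here. Symbols came from the study's supplementary sheets, which were shortened, and matched 2079 of 19076 identifiers (10.9%) and 8 members. The text names every member with a symbol. Unnamed members were chosen after their values were seen, for the largest difference in surface brain, the highest level, an age call in cavefish, the largest population difference in brain or population calls in at least 3 tissues. No sequences or coordinates are given, since no annotation of this build was used here.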

Additional observations from a re-analysis of the deposited data

Results flagged for a closer look

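In 42 groups of 4 libraries, the named members' CPM in brain and the members' summed CPM in each tissue were checked for a single library far from the other 3, and 7 were found, where chance gives about 1 in 20 groups. In young surface brain, gpr186 stood at 64.67 CPM in replicate 1, against 48.15 to 48.33 CPM in the others. In aged surface brain, etv4 stood at 25.85 CPM in replicate 7, against 20.01 to 21 CPM in the others. The summed CPM of the 100 members was 9804 in aged surface brain replicate 5, against 10090 to 10130 in the others, a small step in a tight group. Outside the brain, the sum was 3529 in aged cave gut replicate 8, against 1669 to 1960 in the others. It was 3653 in aged cave muscle replicate 7, against 2071 to 2328, and 2073 in young cave liver replicate 2, against 2954 to 3090. In aged surface liver replicate 6 it was 5137, against 1510 to 1929.

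In 6 cases, the aged and young libraries of a member did not overlap in either population and lay in opposite orders, and the difference between the populations was not tested. The 5 cases in brain are the members with every aged cave brain below every young one. Of the 9878 genes, 9.94% lay so in cave brain, against these 5 of the 100 members. In brain, where the rule fixed the surface order, the age difference in cavefish was -0.171 for ENSAMXG00000014870, -0.375 for ENSAMXG00000041070, -0.541 for ENSAMXG00000039999, -0.486 for ENSAMXG00000038329 and -0.244 for ENSAMXG00000033328, against 0.7, 0.471, 0.351, 0.332 and 0.297 in surface fish. In heart it was 3.013 for ENSAMXG00000018528 in cavefish, against -0.583 in surface fish, and the first value is set largely by young cave replicate 1, the library that stood apart.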

How the results depend on the processing

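The membership itself moved with the settings: 62 of the 100 genes remained with a floor of 30 CPM, 63 to 97 when 1 library was left out (63 without aged surface replicate 8), and 69 to 81 with other scalings, pseudocounts or a floor of 1 CPM. With 1 library left out, 91 to 100 of the members still met every condition of the rule. Between 193 and 321 genes then did so, against 203 with all libraries, and the 100 highest were taken from these. With edgeR, the members called for age numbered 22 in surface brain and 0 in cave brain, gut, heart and liver, and those called between populations numbered 5 in gut, 1 in liver and 5 in muscle. With total-count factors, the counts were 0 for age in cave liver, 2 between populations in heart and 3 in liver. With cave liver replicate 4 as aged, 0 members were called for age in cave liver. Leaving out 1 library gave 30 to 63 members in surface brain and, for age in cavefish, 0 to 0 in brain, 0 to 2 in heart, 0 to 1 in muscle, 0 to 1 in liver and 3 to 6 in gut. Between populations it gave 25 to 29 in brain, 6 to 9 in muscle, 2 to 6 in liver, 4 to 7 in heart and 6 to 12 in gut. For brain against other tissues, total-count factors turned fancc in gut to 0.675, etv4 in muscle to 0.762, sqstm1 in liver to 0.234, and si:dkey-112a7.4 to 0.467 in gut, 0.477 in heart and 1.837 in liver. The cause of these changes was not tested. No shares over all genes stand beside the counts in this paragraph, so nothing about the members is read from a change in them.

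Replicate numbers are shared across populations and tissues, and no source ties a number to a fish. Same-numbered libraries did not all deviate together. The lowest correlations were -0.298 to -0.0298 between populations and -0.0377 to 0.0596 between cave brain and the other cave tissues. In these tissue comparisons the median same-number correlation was 0.0579 to 0.105, and 3 to 5 of 7 libraries correlated best with their own number. Between populations, whose libraries share no fish, 1 to 2 of 7 or 8 libraries did so, and the median correlation was 0.0183 to 0.0803. More libraries thus matched their own number between cave tissues than between populations. Whether same-numbered cave tissues came from the same fish was not tested. The main fits did not pair them and took them as independent. With a replicate block, 19 members were called between populations in brain, 10 in muscle, 4 in liver, 5 in heart and 7 in gut. Between cave brain and other tissues the block gave 84 members in muscle, 79 in liver, 75 in heart and 81 in gut. Shares over all genes are not given with the block, so nothing about the members is read from these counts. No paired analysis was possible for age because aged and young libraries share no numbers. Over the 95 changes of printed members past the threshold, 1366 alternative values were computed, of which 1193 kept direction and call, 167 kept direction only and 6 reversed. With 3 or 4 libraries a group and members down to 10 CPM, small changes with age in cavefish may have been missed. How small a change could be called was not tested, and a missing call does not show equal levels.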
